A study of Mus musculus with 33 samples.

Results

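Fibroblast growth factor (FGF) ligands and receptors were followed in P19 cells, a mouse embryonal carcinoma line, as the cells left the undifferentiated state along 2 routes. The genes were chosen by name: the ligands Fgf3, Fgf4, Fgf5, Fgf8, Fgf15 and Fgf17 and the receptors Fgfr1, Fgfr2, Fgfr3 and Fgfr4. Of these 10 genes, 9 (5 ligands and 4 receptors) were among the 14717 genes of the deposited RNA table, and Fgf17 was not analysed here. The study set RNA levels beside H3K9me2 chromatin at the nuclear edge, and its 18 chromatin samples were not analysed here. RNA was measured in 15 libraries, 3 for each of 5 groups. D3RA and D6RA were cells differentiated for 3 and 6 days with 1 µM all-trans retinoic acid (RA), the route of this line to neural cells. D3DMSO and D6DMSO were cells at the same days with 1% dimethyl sulfoxide (DMSO), its route to mesoderm and cardiac muscle. D0 was the undifferentiated P19 culture. Cells of both routes grew as floating aggregates (embryoid bodies) for 2 days before they were plated, and all groups share 1 cell line with no engineered allele. The labels call the libraries of a group biological replicates without saying whether each was its own culture, so p-values measure the spread between these libraries.

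FGF ligands are secreted proteins that bind heparan sulfate and receptor tyrosine kinases at the cell surface, and in early embryonic cells they signal mainly through the RAS-ERK cascade. In the mouse embryo FGF-ERK signalling moves cells out of naive pluripotency, and Fgf8 and Fgf4 act in the primitive streak, where mesoderm forms. Differentiating neural progenitors leave a domain of FGF signalling that RA is known to oppose.

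Library depth and composition differed between groups. Total counts were 3.55 to 9.82 M in D3RA, 5.86 to 6.87 M in D3DMSO and 7.13 to 9.88 M in D0. They were 38.2 to 49.6 M in D6RA and 39.0 to 44.5 M in D6DMSO. Mitochondrial genes took 41.6 to 42.6% of the counts in D6RA and 49.8 to 55.8% in D6DMSO and were at 0 in every D3RA, D3DMSO and D0 library, so day 6 and this difference between libraries cannot be told apart. The labelled states were checked on marker genes, given as summed CPM, the recovered count scaled to library size. Summed over 7 of 8 neural markers, the level was 1310 to 1430 CPM in D3RA against 231 to 247 CPM in D3DMSO, and 3260 to 3470 CPM in D6RA against 146 to 162 CPM in D6DMSO. Summed over 6 of 8 mesoderm markers, it was 59.0 to 85.4 CPM in D3RA against 1000 to 1180 CPM in D3DMSO, and 10.4 to 14.5 CPM in D6RA against 205 to 218 CPM in D6DMSO. The D3DMSO sum was mostly T (mean 874 CPM). The D3RA and D6DMSO sums were mostly Kdr, which averaged 66.4 CPM in D3RA against 46.8 CPM in D3DMSO, and 124 CPM in D6DMSO. By calls, 5 of the 6 were lower with RA and 0 higher at each day. Summed over 6 of 8 pluripotent markers, the level was 50.5 to 58.0 CPM in D3RA, 1050 to 1530 CPM in D3DMSO and 2390 to 2690 CPM in D0. At day 6 the sum was 10.9 to 14.5 CPM in D6RA against 419 to 463 CPM in D6DMSO. The D3RA, D6RA and D6DMSO sums were mostly Lin28a, which averaged 52.0, 12.3 and 373 CPM in these groups. Pou5f1 averaged 47.0 CPM in D6DMSO and 1320 CPM in D0. Markers of endothelial and blood cells (5 of 8) summed to 102 to 132 CPM in D3RA against 3.41 to 4.52 CPM in D3DMSO, and to 12.0 to 16.4 CPM in D6RA against 43.0 to 55.3 CPM in D6DMSO. Markers of fibroblasts and smooth muscle (7 of 8) summed to 80.1 to 90.0 CPM in D3RA against 51.4 to 58.1 CPM in D3DMSO, and to 11.3 to 14.0 CPM in D6RA against 459 to 549 CPM in D6DMSO. By calls these 7 went both ways, with 3 higher and 2 lower in D3RA than in D3DMSO, and 1 higher and 6 lower in D6RA than in D6DMSO. Markers of extraembryonic endoderm (3 of 8) summed to 108 to 116 CPM in D3RA against 51.6 to 131 CPM in D3DMSO, and to 169 to 191 CPM in D6RA against 60.5 to 73.6 CPM in D6DMSO. The D6RA sum was mostly Lama1, which averaged 178 CPM in D6RA against 33.2 CPM in D6DMSO. The other measured markers were lower in D6RA than in D6DMSO, Sox17 at 0.949 against 3.43 CPM and Dab2 at 2.98 against 30.2 CPM. Of the measured markers, Dppa4 (pluripotent) was at 0 counts in D6RA, Emcn (endothelial) in D3DMSO, and Pax7 (neural) and Wnt3a (mesoderm) in D0. These lists moved with the treatment, as did the FGF genes, and their part in the differences below was not tested. In bulk RNA, fewer cells that express a gene and less RNA per cell cannot be told apart.

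With RA, FGF genes moved in both directions. At day 3 all 5 measured ligands and Fgfr1 were lower in D3RA than in D3DMSO, while Fgfr2, Fgfr3 and Fgfr4 were higher. At day 6 Fgf3, Fgf4, Fgf5, Fgf8 and Fgfr1 were again lower in D6RA than in D6DMSO and Fgfr2, Fgfr3 and Fgfr4 higher, but Fgf15 was higher in D6RA. Genes were called at an adjusted p (Benjamini-Hochberg) under 0.05 in limma over all 14717 genes. In D3RA versus D3DMSO, 9 of 9 members were called (3 higher, 6 lower), where 62.1% of all genes were called, 30.7% higher and 31.4% lower. In D6RA versus D6DMSO, 9 of 9 were called (4 higher, 5 lower), where 65.8% of all genes were called, 32.6% higher and 33.1% lower. The median log2 fold change of the members was -3.71 at day 3 and -0.70 at day 6, beside -0.01 and -0.02 over all genes tested. With more than 6 in 10 genes called, the number of calls says little about the FGF genes, and the sizes and patterns are given for each gene.

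**Figure D1:**
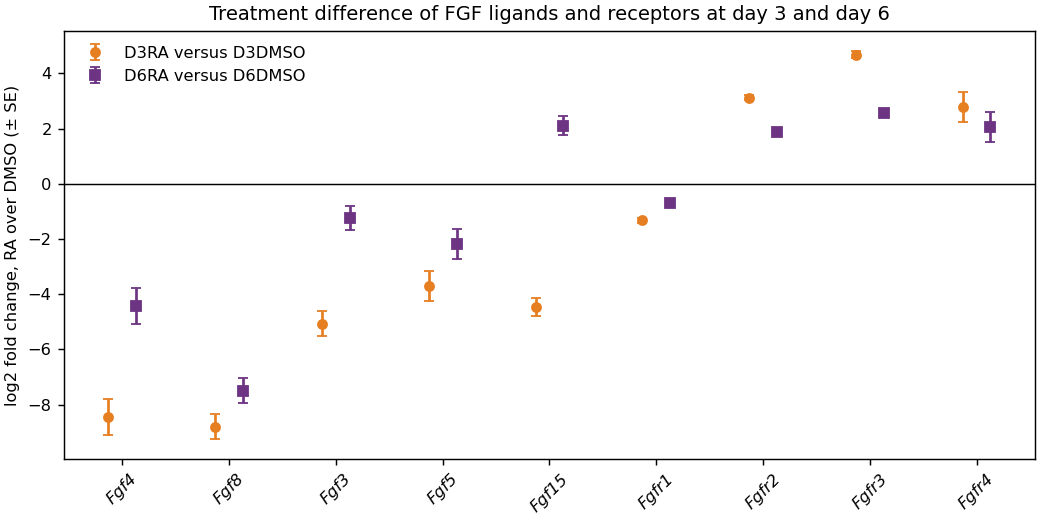
Log2 fold change (RA over DMSO) of the 9 FGF genes at day 3 (orange circles) and day 6 (purple squares), with bars of 1 standard error from the limma fit. Fgf15 lies at -4.46 at day 3 and at 2.10 at day 6, while each of the other 8 genes lies on the same side of 0 at both days.

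Fgf4 and Fgf8, both known from the primitive streak of the gastrulating embryo, had no more than a trace of RNA in RA-treated cells. Fgf4 (ENSMUSG00000050917, chromosome 7), which early embryonic cells secrete and which drives their exit from naive pluripotency, had 0 counts in all 3 D3RA libraries, against 33.3, 47.6 and 44.0 CPM in D3DMSO and 14.9, 11.0 and 10.1 CPM in D0. At day 6 it had 0.0331, 0.123 and 0 CPM in D6RA, from 4 counts in all, against 1.10, 1.13 and 0.831 CPM in D6DMSO. The RA and DMSO libraries did not overlap at either day. Taking 3 counts over the D3RA group as the floor (0.185 CPM), Fgf4 was at least 221-fold lower in D3RA than in D3DMSO (limma adjusted p = 7.52e-09) and at least 65.3-fold lower than in D0 (limma adjusted p = 1.06e-07). In D6RA its log2 fold change over D6DMSO was -4.42 ± 0.65 (SE; limma adjusted p = 1.20e-05).

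Fgf8 (ENSMUSG00000025219, chromosome 19), which later also patterns the midbrain-hindbrain boundary, had 0.182, 0 and 0.457 CPM in D3RA, from 3 counts in all. The D3DMSO libraries had 142, 128 and 121 CPM and the D0 libraries 2.56, 1.89 and 3.21 CPM. D3DMSO libraries were thus far above D0 and D3RA libraries below it, with no overlap among the 3 groups. By the group counts, scaled to library size, Fgf8 was 710-fold lower in D3RA than in D3DMSO, with a 95% counting interval of 243 to 3440 that covers counting error only. The difference was called (limma adjusted p = 6.74e-11). At day 6 Fgf8 had 0.0331, 0.123 and 0.0313 CPM in D6RA against 12.1, 12.3 and 13.1 CPM in D6DMSO, a log2 fold change of -7.49 ± 0.46 (SE; limma adjusted p = 2.97e-10).

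Fgf3 (ENSMUSG00000031074, chromosome 7), a ligand known from the inner ear and the tail end of the embryo, shared the peak in D3DMSO. It had 0.455, 0 and 0.457 CPM in D3RA, against 9.11, 17.0 and 13.3 CPM in D3DMSO and 1.03, 1.10 and 0.756 CPM in D0. Libraries of the 3 groups did not overlap, and the log2 fold change of D3RA over D3DMSO was -5.07 ± 0.45 (SE; limma adjusted p = 4.84e-08). At day 6 the level was low in both routes, with 0.662, 0.369 and 0.532 CPM in D6RA and 1.27, 1.30 and 1.09 CPM in D6DMSO. The day 6 difference of -1.24 ± 0.45 (SE) was called (limma adjusted p = 0.0225), but the call was lost without D6DMSO replicate 1 (0.0552), D6DMSO replicate 2 (0.0592) or D6RA replicate 2 (0.0895), and under quantile normalization (0.138).

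Fgf5 (ENSMUSG00000029337, chromosome 5), a marker of the formative and primed epiblast, was highest in D0. Its level was 0.546, 0 and 0.457 CPM in D3RA and 7.59, 2.26 and 8.06 CPM in D3DMSO, below the 17.3, 14.2 and 13.9 CPM of D0. The groups were ordered with no overlap, with D3DMSO replicate 2 well below the other D3DMSO libraries. D3RA was lower than D3DMSO by a log2 fold change of -3.71 ± 0.55 (SE; limma adjusted p = 2.02e-05). At day 6 Fgf5 had 0.166, 0.0819 and 0.0939 CPM in D6RA against 0.614, 0.798 and 0.350 CPM in D6DMSO, with a log2 fold change of -2.19 ± 0.55 (SE; limma adjusted p = 0.00223).

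**Figure D2:**
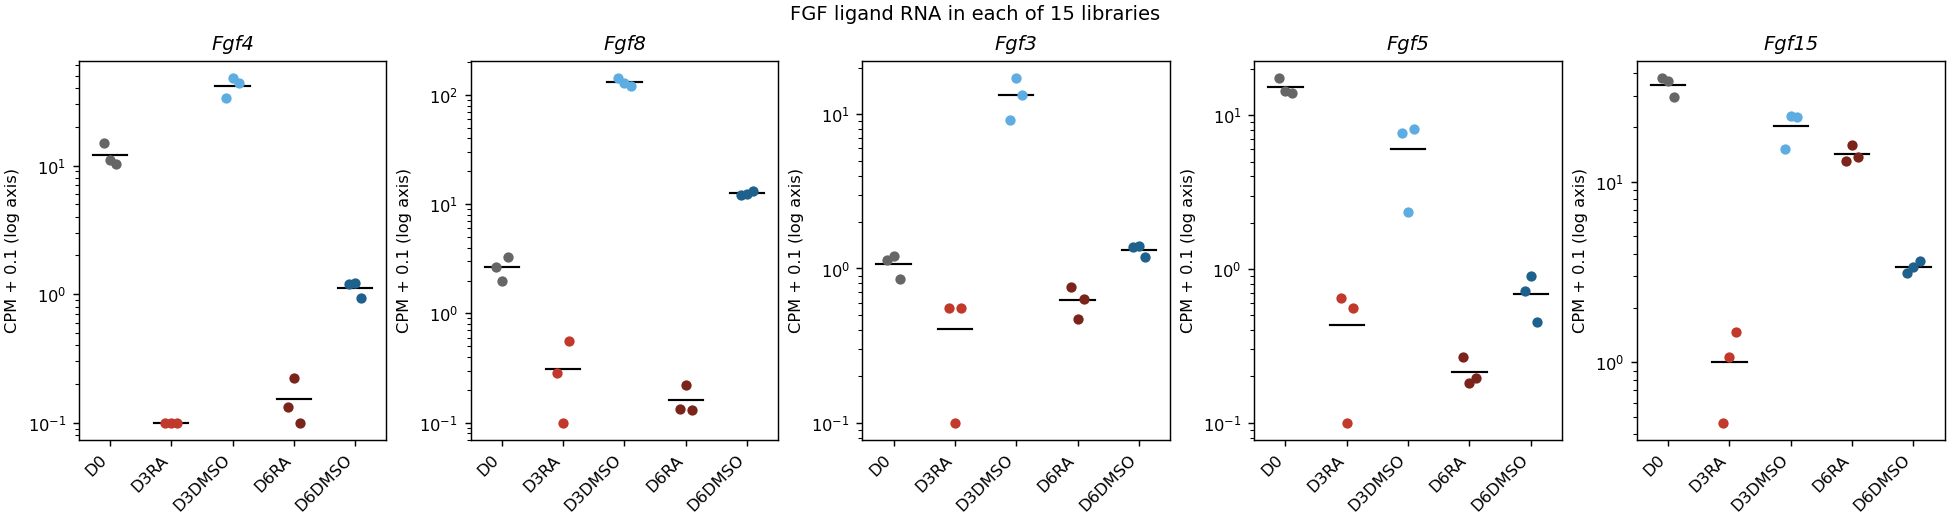
RNA of the 5 FGF ligands in each of 15 libraries, in CPM + 0.1 on a log axis, where a point at 0.1 is a library with 0 counts and the bar is the mean of 3 libraries. Fgf4, Fgf8 and Fgf3 peak in D3DMSO, Fgf5 is highest in D0, and Fgf15 is lowest in D3RA but higher in D6RA than in D6DMSO.

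Fgf15 (ENSMUSG00000031073, chromosome 7), the mouse counterpart of human FGF19, is known from the embryonic brain and as a gut hormone that limits bile acid synthesis. It was the member whose treatment difference changed sign between days. At day 3 it had 0.364, 0.977 and 1.37 CPM in D3RA, against 15.1, 23.0 and 22.8 CPM in D3DMSO and 37.3, 36.2 and 29.5 CPM in D0. At day 6 it had 12.9, 15.9 and 13.6 CPM in D6RA against 3.03, 3.28 and 3.54 CPM in D6DMSO. RA and DMSO libraries did not overlap at either day, with RA libraries low at day 3 and high at day 6. RA over DMSO came to a log2 fold change of -4.46 ± 0.34 (SE) for D3RA over D3DMSO (limma adjusted p = 6.93e-09) and 2.10 ± 0.34 (SE) for D6RA over D6DMSO (limma adjusted p = 3.72e-05). The interaction, the day 6 treatment difference (RA over DMSO, log2) less the day 3 one, was 6.56 ± 0.48 (SE; limma adjusted p = 1.10e-08). Within the RA route Fgf15 was higher in D6RA than in D3RA by 3.96 ± 0.34 on the log2 scale (SE; limma adjusted p = 3.20e-08), and within the DMSO route it was lower in D6DMSO than in D3DMSO, with a log2 fold change of -2.60 ± 0.34 (SE; limma adjusted p = 7.80e-06). The 3 D6RA libraries held 1212 counts of Fgf15 in all, and the 3 D3RA libraries 10.

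The interaction was called for 6 of 9 members (4 higher, 2 lower), where it was called for 48.5% of all genes, 25.4% higher and 23.1% lower. Besides Fgf15, it was 4.01 ± 0.91 for Fgf4 (limma adjusted p = 0.00170), 3.83 ± 0.63 for Fgf3 (limma adjusted p = 0.000104) and 0.62 ± 0.12 for Fgfr1 (limma adjusted p = 0.000447). These 3 genes were lower with RA at both days, and by less at day 6. It was -1.23 ± 0.13 for Fgfr2 (limma adjusted p = 5.53e-07) and -2.10 ± 0.20 for Fgfr3 (limma adjusted p = 1.97e-07), which were higher with RA at both days and by less at day 6. The value for Fgf4 leans on the D3RA libraries with 0 counts and so on the count of 0.5 added by the authors. For Fgf8 (1.30 ± 0.65, limma adjusted p = 0.112), Fgf5 (1.52 ± 0.78, limma adjusted p = 0.12) and Fgfr4 (-0.71 ± 0.77, limma adjusted p = 0.479) the interaction was not called. The interaction of Fgf8 was called without D3RA replicate 3 (1.91, 0.00743) or without both D3RA replicates 2 and 3 (1.67, 0.0361), and under quantile normalization (2.09, 0.0102), an added count of 2 (2.77, 0.000458) and thinning (2.45, 0.00363). That of Fgf5 was called without D3DMSO replicate 2 (2.10, 0.0278), under quantile normalization (2.43, 0.0162) and with an added count of 2 (2.31, 0.0207).

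Fgf3, Fgf4 and Fgf15 are 3 consecutive protein-coding genes on mouse chromosome 7, with Ano1 before Fgf3 and Ccnd1 beyond Fgf15, per the RefSeq annotation of GRCm38.p6. All 3 were lower in D3RA than in D3DMSO, but in D6RA only Fgf15 of the 3 was above its D6DMSO level. The measured neighbours did not share 1 direction. Ccnd1, which encodes the cell cycle regulator cyclin D1, was higher with RA at both days. It averaged 54.0 ± 5.4 CPM in D3RA against 18.1 ± 3.7 CPM in D3DMSO, and 122 ± 11 CPM in D6RA against 39.8 ± 3.4 CPM in D6DMSO (SD, n = 3 each), with log2 fold changes of 1.59 and 1.61 (limma adjusted p = 8.64e-09 and 4.64e-09). Ano1, a chloride channel gene, averaged 0.916 ± 0.63 CPM in D3RA against 2.43 ± 0.55 CPM in D3DMSO (SD; limma adjusted p = 0.00266), and 0.232 ± 0.029 CPM in D6RA against 4.14 ± 0.63 CPM in D6DMSO (SD; limma adjusted p = 1.48e-08). Fadd, an adaptor gene of cell death receptors that lies before Ano1, was not called at day 3 (0.18 ± 0.16, limma adjusted p = 0.316) or day 6 (-0.16 ± 0.16, limma adjusted p = 0.369).

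The promoters of Fgf3 and Fgf4 are shown because these adjacent genes both peaked in D3DMSO and were lower with RA at both days. Each window runs from 250 bases before to 50 bases after the gene start on the gene's strand, 5′ to 3′, from RefSeq on GRCm38.p6. The windows lie at chr7:144838362-144838661 (plus strand) for Fgf3 and chr7:144861136-144861435 (plus strand) for Fgf4. Windows were found for 6 of the 10 genes, and none for Fgf8, Fgf15, Fgf17 and Fgfr1. The window of Fgf5 was found but is not shown. Capitals mark matches on either strand to a TATA box (TATAAA), a GC box (GGGCGG) or a half-site of the RA receptor (AGGTCA, as well as the variant AGTTCA, the variant GGGTCA and the variant GGTTCA).
Fgf3 promoter: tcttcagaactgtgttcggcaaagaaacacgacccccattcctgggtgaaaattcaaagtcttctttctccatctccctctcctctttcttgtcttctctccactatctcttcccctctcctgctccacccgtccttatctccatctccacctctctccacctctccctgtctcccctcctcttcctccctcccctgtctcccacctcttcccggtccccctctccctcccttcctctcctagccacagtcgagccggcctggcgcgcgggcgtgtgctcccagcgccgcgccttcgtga
Fgf4 promoter: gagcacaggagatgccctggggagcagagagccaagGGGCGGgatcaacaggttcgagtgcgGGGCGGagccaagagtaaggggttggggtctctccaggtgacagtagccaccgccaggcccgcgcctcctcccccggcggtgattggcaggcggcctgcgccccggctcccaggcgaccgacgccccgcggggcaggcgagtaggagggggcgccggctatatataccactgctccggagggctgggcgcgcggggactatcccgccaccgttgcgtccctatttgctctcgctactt
The Fgf3 window held no match and was 75.0% pyrimidine (C or T) on the gene's strand. The Fgf4 window held 2 GC boxes, starting 214 and 188 bases before the gene start, a G+C content of 69.7% and 28 CpG dinucleotides, where the median over all 32851 mouse promoter windows was 52.7% G+C and 7 CpG. The Fgf5 window held 1 TATA box, 1 GC box and 1 half-site, starting at positions 35, -74 and -174 relative to the gene start. A GC box was found in 35.7% of all windows, a TATA box in 13.6% and a half-site in 43.7%. Half-sites in direct repeat, 2 or 5 bases apart, were found in 0.268% and 0.0974% of windows and in none of the members' windows.

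The receptors moved apart from one another. Fgfr1 (ENSMUSG00000031565, chromosome 8), the main FGF receptor of the pluripotent epiblast, had 53.0, 48.5 and 56.2 CPM in D3RA, against 118, 133 and 144 CPM in D3DMSO and 116, 117 and 128 CPM in D0. At day 6 it had 73.6, 82.6 and 79.7 CPM in D6RA against 123, 122 and 139 CPM in D6DMSO. RA libraries were below all DMSO and D0 libraries at both days. Fgfr1 differed by a log2 fold change of -1.32 ± 0.09 at day 3 (SE; limma adjusted p = 8.75e-10) and -0.70 ± 0.09 at day 6 (SE; limma adjusted p = 1.49e-06). D3DMSO, D6DMSO and D0 libraries overlapped for Fgfr1, and its level in D3DMSO over D0 (0.13 ± 0.09, limma adjusted p = 0.22) and in D6DMSO over D3DMSO (-0.04 ± 0.09, limma adjusted p = 0.701) was not called different.

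Fgfr2 (ENSMUSG00000030849, chromosome 7), an FGF receptor of epithelia, extraembryonic lineages and neural progenitors, was raised with RA. It had 173, 153 and 180 CPM in D3RA, against 21.8, 16.8 and 19.5 CPM in D3DMSO and 36.5, 41.8 and 40.5 CPM in D0. At day 6 it had 203, 211 and 208 CPM in D6RA against 55.6, 55.3 and 57.1 CPM in D6DMSO. All 5 groups stood apart for this gene, with D6RA and D3RA at the top and D3DMSO at the bottom. RA over DMSO gave a log2 fold change of 3.12 ± 0.09 at day 3 (SE; limma adjusted p = 5.17e-14) and 1.89 ± 0.09 at day 6 (SE; limma adjusted p = 8.98e-12). Fgfr2 was also lower in D3DMSO than in D0, with a log2 fold change of -1.03 ± 0.09 (SE; limma adjusted p = 6.37e-08).

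Fgfr3 (ENSMUSG00000054252, chromosome 5), a receptor of neural progenitors, astrocytes and cartilage, had the largest rise with RA of the 9 genes at both days. It had 77.4, 69.1 and 59.8 CPM in D3RA, against 2.49, 2.67 and 2.63 CPM in D3DMSO and 2.46, 3.15 and 3.31 CPM in D0. At day 6 it had 78.6, 88.3 and 86.6 CPM in D6RA against 14.2, 16.2 and 12.3 CPM in D6DMSO. The RA libraries were far above the others at both days, and D3DMSO and D0 libraries overlapped. Its log2 fold change over DMSO was 4.68 ± 0.14 at day 3 (SE; limma adjusted p = 8.03e-14) and 2.58 ± 0.14 at day 6 (SE; limma adjusted p = 4.94e-11).

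Fgfr4 (ENSMUSG00000005320, chromosome 13), known from liver and muscle progenitors, was rare in every group. It had 2.37, 1.63 and 2.28 CPM in D3RA, against 0.414, 0 and 0.620 CPM in D3DMSO and 0.410, 0.786 and 0.756 CPM in D0, and 2.42, 1.88 and 2.19 CPM in D6RA against 0.614, 0.462 and 0.438 CPM in D6DMSO. RA libraries were above DMSO libraries at both days without overlap. On the log2 scale the difference from DMSO was 2.77 ± 0.55 at day 3 (SE; limma adjusted p = 0.000327) and 2.06 ± 0.55 at day 6 (SE; limma adjusted p = 0.00321). The D3RA and D3DMSO groups held 36 and 7 counts of it.

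**Figure D3:**
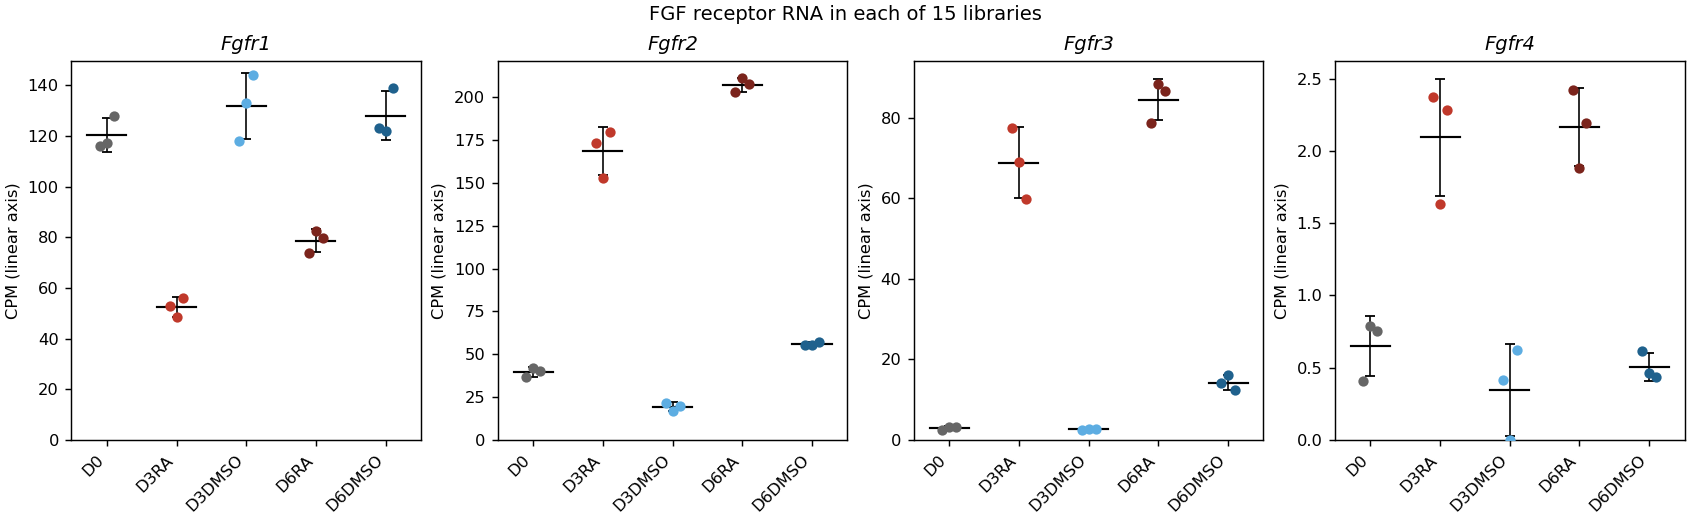
RNA of the 4 FGF receptors in each of 15 libraries, in CPM on a linear axis that starts at 0, with the mean and SD of 3 libraries. In both RA groups Fgfr1 is lower and Fgfr2, Fgfr3 and Fgfr4 are higher than in the DMSO group of the same day.

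Because these receptors moved in opposite directions, the balance between them was taken within each library, where scaling between libraries cancels. Fgfr2 counts per Fgfr1 count were 3.27, 3.16 and 3.20 in D3RA, against 0.185, 0.126 and 0.136 in D3DMSO and 0.314, 0.357 and 0.317 in D0. At day 6 the ratio was 2.76, 2.56 and 2.61 in D6RA against 0.454, 0.453 and 0.412 in D6DMSO. RA libraries thus held more Fgfr2 than Fgfr1 counts, and all DMSO and D0 libraries fewer. The ratio was 21.8-fold higher in D3RA than in D3DMSO and 6.02-fold higher in D6RA than in D6DMSO, with an exact two-sided permutation p of 0.1 for each, the smallest that 3 libraries against 3 allow. Fgfr3 counts per Fgfr1 count were 1.07 to 1.46 in D3RA against 0.0183 to 0.0211 in D3DMSO, 66.0-fold higher, and 1.07 to 1.09 in D6RA against 0.0884 to 0.132 in D6DMSO, 9.73-fold higher (exact two-sided permutation p = 0.1 each). The ratios were chosen after the receptors were seen to move in opposite directions without overlap, so these permutation p-values add no support. Counts were not divided by transcript length, so the point where a ratio passes 1 does not compare molecules.

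**Figure D4:**
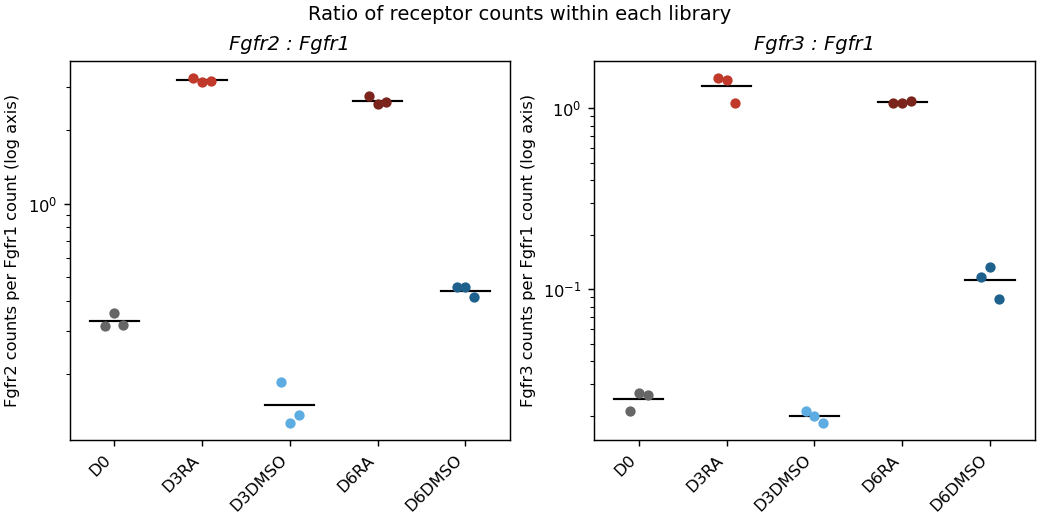
Fgfr2 counts (left) and Fgfr3 counts (right) per Fgfr1 count within each of 15 libraries, on log axes, with a bar at the mean of 3 libraries. The D3RA and D6RA libraries lie at 2.56 or more for Fgfr2 and at 1.07 or more for Fgfr3, and all other libraries lie at 0.454 or less and at 0.132 or less.

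The promoters of the 3 receptors that were higher with RA are shown for comparison with one another. The windows lie at chr7:130266759-130267058 (minus strand) for Fgfr2, chr5:33721474-33721773 and chr5:33722056-33722355 (plus strand) for 2 starts of Fgfr3, and chr13:55152568-55152867 (plus strand) for Fgfr4, all on GRCm38.p6. Capitals mark the same motifs as above.
Fgfr2 promoter: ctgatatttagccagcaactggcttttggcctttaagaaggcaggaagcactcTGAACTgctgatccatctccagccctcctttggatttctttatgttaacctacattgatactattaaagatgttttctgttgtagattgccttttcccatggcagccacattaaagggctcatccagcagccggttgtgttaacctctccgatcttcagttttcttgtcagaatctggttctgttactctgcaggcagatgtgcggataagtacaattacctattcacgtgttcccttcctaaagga
Fgfr3 promoter, upstream start: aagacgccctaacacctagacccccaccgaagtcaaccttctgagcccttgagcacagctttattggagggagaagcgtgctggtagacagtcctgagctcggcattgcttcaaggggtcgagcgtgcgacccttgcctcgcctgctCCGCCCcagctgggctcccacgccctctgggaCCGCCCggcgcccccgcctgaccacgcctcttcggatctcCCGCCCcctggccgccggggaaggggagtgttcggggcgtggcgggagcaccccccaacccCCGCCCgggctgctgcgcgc
Fgfr3 promoter, downstream start: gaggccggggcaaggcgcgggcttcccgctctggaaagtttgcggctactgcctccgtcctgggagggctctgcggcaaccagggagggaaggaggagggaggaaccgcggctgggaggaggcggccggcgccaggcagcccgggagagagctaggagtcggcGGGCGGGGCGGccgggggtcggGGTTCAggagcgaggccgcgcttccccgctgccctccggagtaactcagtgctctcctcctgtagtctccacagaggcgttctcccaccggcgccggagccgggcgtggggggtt
Fgfr4 promoter: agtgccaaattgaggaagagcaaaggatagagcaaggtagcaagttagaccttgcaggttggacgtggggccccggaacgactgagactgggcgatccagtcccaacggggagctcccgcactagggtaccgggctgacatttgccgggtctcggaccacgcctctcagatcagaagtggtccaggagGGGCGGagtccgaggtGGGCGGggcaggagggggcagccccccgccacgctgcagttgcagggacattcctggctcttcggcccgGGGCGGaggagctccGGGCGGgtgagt
The Fgfr2 window had 43.7% G+C, 4 CpG dinucleotides, no GC box and 1 half-site, on the opposite strand. The Fgfr3 windows had 69.7% and 73.0% G+C with 4 and 2 GC boxes, the 2 of the downstream window overlapping each other, and the downstream one also held 1 half-site. The Fgfr4 window had 65.3% G+C, 4 GC boxes and no half-site. The receptors that were higher with RA thus shared none of these motifs across all of their windows.

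Against the undifferentiated cells, the routes differed in which FGF genes moved. D3RA versus D0 and D3DMSO versus D0 share their D0 libraries, so their values are given side by side. In D3RA versus D0, 9 of 9 members were called (3 higher, 6 lower), where 68.9% of all genes were called, 35.0% higher and 33.9% lower. In D3DMSO versus D0, 5 of 9 were called (3 higher, 2 lower), where 56.1% of all genes were called, 28.2% higher and 27.8% lower. The log2 fold change of Fgf8 was -3.12 ± 0.46 in D3RA over D0 and 5.67 ± 0.46 in D3DMSO over D0 (SE; limma adjusted p = 1.42e-05 and 3.31e-08). That of Fgf3 was -1.40 ± 0.45 in D3RA over D0 and 3.67 ± 0.45 in D3DMSO over D0 (SE; limma adjusted p = 0.011 and 3.25e-06). That of Fgfr3 was 4.51 ± 0.14 in D3RA over D0 (SE; limma adjusted p = 1.01e-13) and -0.17 ± 0.14 in D3DMSO over D0 (SE; limma adjusted p = 0.319, not called).

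Several of the smaller differences from D0 leaned on single libraries. Fgf4 was higher in D3DMSO than in D0, with a log2 fold change of 1.79 ± 0.65 (SE; limma adjusted p = 0.0259), a call lost without D0 replicate 2 (0.0663) or 3 (0.0726) or D3DMSO replicate 2 (0.075) or 3 (0.0628). Fgf5 was lower in D3DMSO than in D0, with a log2 fold change of -1.52 ± 0.55 (SE; limma adjusted p = 0.0276), a call lost without any 1 D0 library (0.0532 to 0.0823) or D3DMSO replicate 2 (0.165). Fgf15 averaged 20.3 ± 4.5 CPM in D3DMSO and 34.3 ± 4.2 CPM in D0 (SD, n = 3 each), with no overlap, but its log2 fold change of -0.78 ± 0.34 was not called (limma adjusted p = 0.0619). With D3DMSO and D0 fitted alone it was called (0.00348), and likewise without D3RA replicate 1 (0.0021) or 3 (0.025). The call on Fgf3 in D3RA over D0 was lost without D3RA replicate 2 (0.0618) or with D3RA and D0 fitted alone (0.0703), and that on Fgfr4 (1.69 ± 0.55, limma adjusted p = 0.0112) without D0 replicate 1 (0.0524).

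Between day 3 and day 6 the ligands that had peaked in D3DMSO were lower again, and Fgf5, which was highest in D0, was lower too. In D6DMSO versus D3DMSO, 7 of 9 members were called (2 higher, 5 lower), where 56.4% of all genes were called, 28.3% higher and 28.1% lower. The log2 fold change was -5.32 ± 0.65 for Fgf4 (limma adjusted p = 3.62e-06), -3.38 ± 0.46 for Fgf8 (limma adjusted p = 1.26e-05), -3.37 ± 0.45 for Fgf3 (limma adjusted p = 9.72e-06) and -3.19 ± 0.55 for Fgf5 (limma adjusted p = 0.000129). Fgf8 still had 12.5 ± 0.53 CPM in D6DMSO, above its 2.56 ± 0.66 CPM in D0 (SD, n = 3 each). Fgfr2 and Fgfr3 were higher in D6DMSO than in D3DMSO, by 1.53 ± 0.09 and 2.40 ± 0.14 (SE; limma adjusted p = 7.40e-10 and 7.19e-10). The part of the mitochondrial share in these differences between days was not tested.

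In D6RA versus D3RA, 5 of 9 members were called (3 higher, 2 lower), where 69.3% of all genes were called, 37.2% higher and 32.0% lower. Besides Fgf15, Fgfr1 was higher in D6RA by 0.58 ± 0.09 on the log2 scale (SE; limma adjusted p = 1.43e-05). Fgfr2 was higher in D6RA by 0.30 ± 0.09 (SE; limma adjusted p = 0.00646), a call lost without D3RA replicates 2 and 3, the shallowest libraries (0.075). Fgfr3, at 0.30 ± 0.14, was not called (limma adjusted p = 0.0637). It was called under scaling to the non-mitochondrial total (0.80, 0.00802), with voom weights (0.24, 0.028), with D6RA and D3RA fitted alone (0.0225), and without D3RA replicate 1 (0.39, 0.0361) or D0 replicate 1 (0.0409). The calls on Fgf5 and Fgf8 rest on 10 and 5 counts in D6RA and 7 and 3 in D3RA, and the libraries of these groups overlapped. A count of 0 has a higher log2 value in a shallow library, and the call on Fgf8 (-2.08 ± 0.46, limma adjusted p = 0.000761) was lost when the added count was made proportional to library size (0.171 at 2 counts, 0.431 at 0.25). That on Fgf5 (-1.67 ± 0.55, limma adjusted p = 0.0131) was lost without D3RA replicate 1 (0.0558) or 3 (0.0639), among other alternatives.

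Other secreted FGF ligands were called from a list of 12, of which 3 were measured. In D3RA versus D3DMSO 1 was higher and 1 lower, and in D6RA versus D6DMSO 1 was higher and 2 lower. With 62.1% of all genes called at day 3 and 65.8% at day 6, these counts of 3 genes say little. Fgf18, a ligand known from the cortex and skeleton, averaged 4.27 ± 0.59 CPM in D3RA against 0.12 ± 0.11 CPM (2 counts) in D3DMSO, and 4.54 ± 0.084 CPM in D6RA against 0.806 ± 0.067 CPM in D6DMSO (SD; limma adjusted p = 5.41e-07 and 0.000401). Fgf10, a mesenchymal ligand of Fgfr2 that is also made in cardiac progenitors, averaged 1.53 ± 0.27 CPM in D3RA against 16.9 ± 1.9 CPM in D3DMSO, and 0.372 ± 0.11 CPM in D6RA against 28.8 ± 5.3 CPM in D6DMSO (SD; limma adjusted p = 3.50e-07 and 8.50e-11). Fgf9, a ligand of embryonic mesenchyme and gonad, averaged 2.02 ± 0.097 CPM in D6RA against 11.7 ± 1.3 CPM in D6DMSO (SD; limma adjusted p = 8.17e-06). The medians of the 3 ligands were 0.56 at day 3 and -2.52 at day 6 on the log2 scale.

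The intracellular FGF homologous factors, which are not secreted and bind voltage-gated sodium channels in neurons, were higher with RA where called: 2 of 4 at day 3 and 3 of 4 at day 6, with 0 lower by limma, 0 at an unadjusted p under 0.05 and 0 by voom at either day. Their median log2 fold changes were 1.83 and 2.77. Of all genes 62.1% were called at day 3 and 65.8% at day 6, and 31.4% and 33.1% were lower. Beside these shares, the counts of calls among 4 genes say little. Fgf12 averaged 2.70 ± 1.6 CPM in D3RA against 0.201 ± 0.24 CPM in D3DMSO, and 11.2 ± 0.92 CPM in D6RA against 0.449 ± 0.16 CPM in D6DMSO (SD; limma adjusted p = 9.56e-05 and 3.68e-06). Fgf14 averaged 4.13 ± 0.23 CPM in D3RA against 0.310 ± 0.10 CPM in D3DMSO, and 3.60 ± 0.61 CPM in D6RA against 0.303 ± 0.16 CPM in D6DMSO (SD; limma adjusted p = 3.27e-07 and 1.50e-07).

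Co-receptors and binding partners of FGF receptors, with carriers that release FGFs from the matrix, formed another list. Of 9 measured genes, 8 were higher and 1 lower in D3RA than in D3DMSO, and 6 were higher and 1 lower in D6RA than in D6DMSO. Over all genes 30.7% were higher at day 3 and 32.6% at day 6. Median log2 fold changes of the list were 1.15 and 1.82. Without D3RA replicates 2 and 3, 5 rather than 8 were called higher at day 3. Flrt3, a membrane protein that binds FGF receptors, averaged 127 ± 15 CPM in D3RA against 10.8 ± 2.8 CPM in D3DMSO (SD; limma adjusted p = 6.13e-12), and was not called at day 6 (0.21 ± 0.15, limma adjusted p = 0.235). Fgfbp3, a secreted FGF carrier, averaged 41.9 ± 17 CPM in D3RA against 1.74 ± 0.67 CPM in D3DMSO (SD; limma adjusted p = 7.80e-10). At day 6 the neural adhesion gene L1cam averaged 126 ± 1.8 CPM in D6RA against 10.6 ± 2.8 CPM in D6DMSO (SD; limma adjusted p = 9.29e-11), and Flrt1 averaged 12.3 ± 0.31 CPM in D6RA against 1.44 ± 0.44 CPM in D6DMSO (SD; limma adjusted p = 1.79e-05). The carrier Fgfbp1 was lower, with 4 counts in D3RA against 55 in D3DMSO and 1 count in D6RA against 90 in D6DMSO (limma adjusted p = 2.78e-05 and 2.22e-08).

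Genes of heparan sulfate, the sugar chain that FGFs need to bind their receptors, moved in both directions. Of 22 measured genes, 9 were higher and 9 lower in D3RA than in D3DMSO, and 7 were higher and 10 lower in D6RA than in D6DMSO, with medians of -0.03 and 0.02. The shares of all genes were 30.7% higher and 31.4% lower at day 3, and 32.6% higher and 33.1% lower at day 6. The endosulfatases Sulf1 and Sulf2, which remove sulfate from these chains, went opposite ways at day 3. Sulf1 averaged 9.97 ± 1.9 CPM in D3RA against 369 ± 39 CPM in D3DMSO (SD; limma adjusted p = 5.06e-15), and Sulf2 averaged 87.3 ± 13 CPM in D3RA against 12.9 ± 2.3 CPM in D3DMSO (SD; limma adjusted p = 7.64e-12). Sulf1 was lower at day 6 too, at 4.13 ± 0.38 CPM in D6RA against 128 ± 6.2 CPM in D6DMSO (SD; limma adjusted p = 2.20e-15). The sulfotransferase gene Hs6st2 averaged 68.7 ± 4.0 CPM in D3RA against 16.1 ± 2.1 CPM in D3DMSO (SD; limma adjusted p = 7.06e-12), but was lower at day 6, at 30.1 ± 0.72 CPM in D6RA against 45.5 ± 1.1 CPM in D6DMSO (SD; limma adjusted p = 2.10e-05). Ndst3, another sulfotransferase gene, was lower in D3RA (0.521 ± 0.11 CPM, against 5.45 ± 3.1 CPM in D3DMSO, limma adjusted p = 7.35e-07) and higher in D6RA (9.68 ± 0.25 CPM, against 1.49 ± 0.40 CPM in D6DMSO, limma adjusted p = 1.29e-06). Of the core proteins, Sdc3 (syndecan 3) averaged 67.5 ± 2.1 CPM in D6RA against 9.46 ± 0.65 CPM in D6DMSO (SD; limma adjusted p = 1.84e-10), and Hspg2 (perlecan) averaged 61.2 ± 6.3 CPM in D6RA against 269 ± 50 CPM in D6DMSO (SD; limma adjusted p = 3.30e-06).

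Genes of the adaptors and the RAS-ERK cascade, which carry the signal from the receptor, moved in both directions. Of 22 measured genes, 7 were higher and 11 lower in D3RA than in D3DMSO, and 8 were higher and 7 lower in D6RA than in D6DMSO, with median log2 fold changes of -0.20 and 0.01. Among all genes 30.7% were higher and 31.4% lower at day 3, and 32.6% higher and 33.1% lower at day 6. The count of 7 higher was 3 without D3DMSO replicate 1 and 4 without D3RA replicate 1, without D3RA replicate 2 or without D3RA replicates 2 and 3 together, and the count of 8 higher was 5 without D6RA replicate 3. The adaptor gene Shc1 was lower at both days, at 23.5 ± 2.3 CPM in D3RA against 90.7 ± 14 CPM in D3DMSO and 9.78 ± 0.68 CPM in D6RA against 64.3 ± 1.1 CPM in D6DMSO (SD; limma adjusted p = 1.03e-10 and 7.42e-13). Frs2, the docking protein of FGF receptors, averaged 19.4 ± 0.69 CPM in D3RA against 35.0 ± 9.2 CPM in D3DMSO (SD; limma adjusted p = 0.000176), and its relative Frs3 averaged 12.7 ± 0.83 CPM in D6RA against 8.31 ± 0.61 CPM in D6DMSO (SD; limma adjusted p = 0.0018). The log2 fold change was 0.51 ± 0.15 for the exchange factor gene Sos1 and 0.38 ± 0.09 for Hras at day 3 (limma adjusted p = 0.00591 and 0.00163), and 0.84 ± 0.10 for the adaptor gene Grb2 and -0.63 ± 0.09 for Mapk3, which encodes ERK1, at day 6 (limma adjusted p = 1.73e-06 and 9.85e-06). The call on Sos1 was lost without D3RA replicates 2 and 3, and those on Sos1, Hras and Frs3 under scaling to the total of non-mitochondrial counts.

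Inhibitors of the RAS-ERK pathway, some of which ERK itself is known to induce, were counted by their calls. Of 15 measured, 12 were lower and 2 higher in D3RA than in D3DMSO, and 9 were lower and 0 higher in D6RA than in D6DMSO, with median log2 fold changes of -0.77 and -1.25. At day 6 the count of 0 higher by limma was also 0 at an unadjusted p under 0.05 and was 1 by voom. By the same comparison 31.4% of all genes were lower at day 3 and 33.1% at day 6. Spry4 averaged 0.534 ± 0.66 CPM in D3RA against 41.4 ± 7.2 CPM in D3DMSO, and Spry2 averaged 4.48 ± 0.22 CPM in D3RA against 49.1 ± 0.52 CPM in D3DMSO (SD; limma adjusted p = 6.94e-10 and 1.12e-13). At day 6 Dusp5, which encodes an ERK phosphatase, averaged 5.74 ± 0.36 CPM in D6RA against 55.3 ± 3.1 CPM in D6DMSO (SD; limma adjusted p = 9.45e-13). Spry1 was higher in D3RA, at 20.9 ± 2.4 CPM against 12.0 ± 1.6 CPM in D3DMSO, and lower in D6RA, at 5.21 ± 0.66 CPM against 40.2 ± 5.3 CPM in D6DMSO (SD; limma adjusted p = 0.000109 and 1.12e-11). Its day 3 call was lost under scaling to the non-mitochondrial total (0.49, limma adjusted p = 0.123). Rasa1, a RAS GTPase activator, was 0.18 ± 0.07 higher at day 3 on the log2 scale (SE; limma adjusted p = 0.0292), and this was lost without D3DMSO replicate 1 or 3, D3RA replicate 1, or D3RA replicates 2 and 3 together, and turned to -0.12 when scaled to the non-mitochondrial total.

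The 10 measured genes listed as FGF-ERK target factors were Etv1, Etv4, Etv5, Egr1, Fos, Myc, Ier2, Ier3, Elk3 and Elk4. Not all of these encode transcription factors. Of the 10, 7 were lower and 2 higher in D3RA than in D3DMSO, with a median log2 fold change of -1.28. In D6RA versus D6DMSO 9 were lower and 1 higher, with a median of -2.09. Over all genes 30.7% were higher and 31.4% lower at day 3, and 32.6% higher and 33.1% lower at day 6. Etv5 and Etv4, ETS factors used as readouts of FGF-ERK signalling, led the fall. Etv5 averaged 1.98 ± 0.26 CPM in D3RA against 121 ± 16 CPM in D3DMSO, and 3.93 ± 0.21 CPM in D6RA against 67.1 ± 8.0 CPM in D6DMSO (SD; limma adjusted p = 2.26e-15 and 2.86e-14). Etv4 averaged 2.67 ± 0.75 CPM in D3RA against 47.5 ± 8.8 CPM in D3DMSO, and 2.35 ± 0.030 CPM in D6RA against 21.3 ± 1.6 CPM in D6DMSO (SD; limma adjusted p = 4.77e-12 and 5.69e-11). Myc, a driver of growth, was higher in D3RA, at 19.9 ± 5.4 CPM against 11.7 ± 2.4 CPM in D3DMSO, and lower in D6RA, at 5.01 ± 0.21 CPM against 42.2 ± 5.5 CPM in D6DMSO (SD; limma adjusted p = 0.00177 and 2.14e-10). Its day 3 call was lost under scaling to the non-mitochondrial total (0.46, limma adjusted p = 0.166). The other gene that was higher was the ETS factor gene Elk4, at day 3 (0.53 ± 0.13, limma adjusted p = 0.00232) and day 6 (0.36 ± 0.13, limma adjusted p = 0.0248). The Elk4 call at day 6 was lost without D6DMSO replicate 1 or any 1 D6RA library, and at day 3 without D3RA replicates 2 and 3, and both under scaling to the non-mitochondrial total. The inhibitors and target factors were mostly lower with RA at each day, as were the pluripotent and mesoderm marker sums. Both sums also fell from day 3 to day 6 in each route. By calls, 3 of 6 mesoderm markers were lower and 1 higher in D6DMSO than in D3DMSO, and 5 lower and 1 higher in D6RA than in D3RA. In D6DMSO versus D3DMSO 7 inhibitors were higher and 4 lower, and 4 target factors higher and 3 lower. In D6RA versus D3RA 10 inhibitors were higher and 4 lower, and 3 target factors higher and 4 lower. The part of pluripotent and mesoderm cells was not tested.

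**Figure D5:**
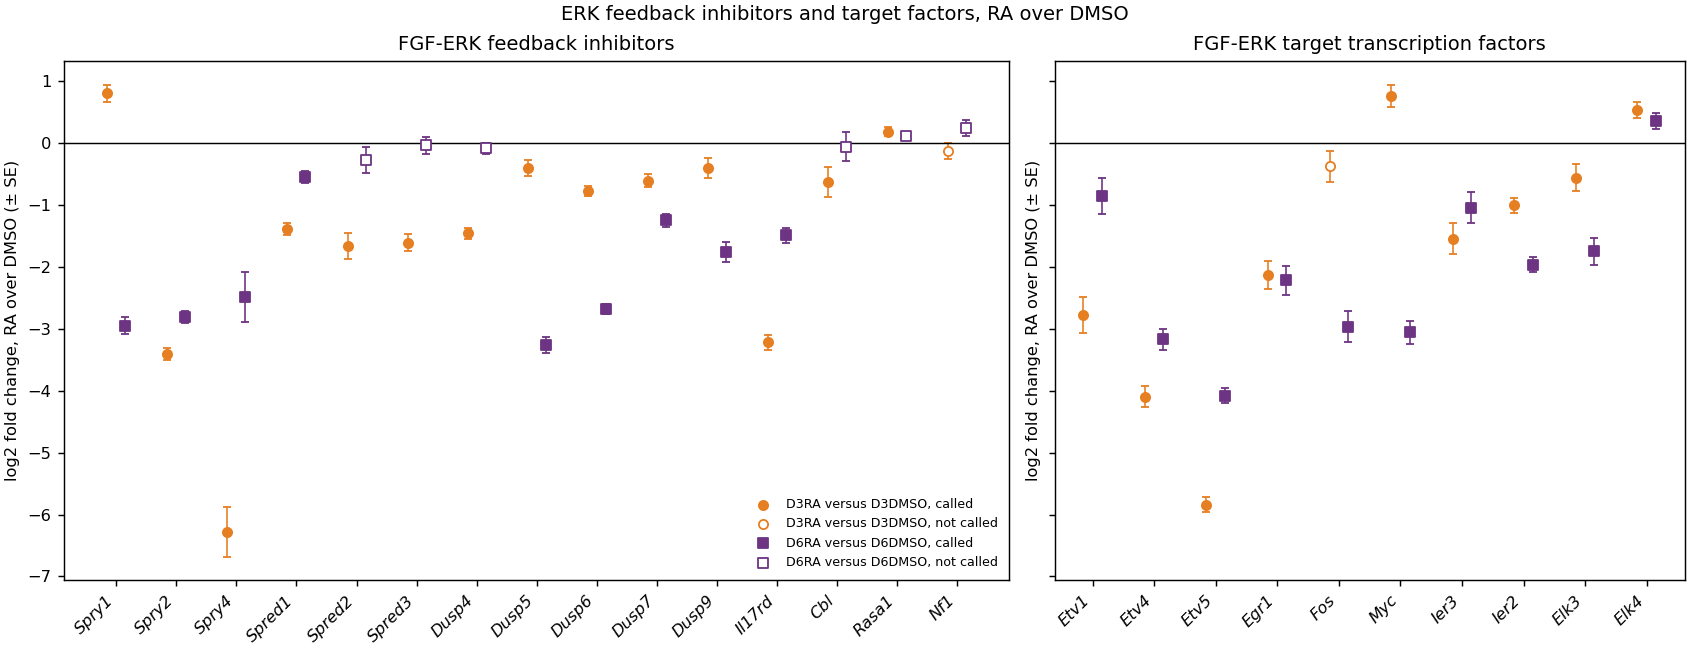
Log2 fold change (RA over DMSO, with bars of 1 standard error) of 15 FGF-ERK feedback inhibitors (left) and 10 genes listed as target factors (right) at day 3 (orange circles) and day 6 (purple squares), where open symbols were not called. Of the inhibitors 12 and 9 were lower and of the target factors 7 and 9, at day 3 and day 6.

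Splicing factors known to choose between the epithelial and mesenchymal exons of FGF receptors were examined because the table gives genes, not isoforms. Of 6 measured, 2 were higher and 2 lower in D3RA than in D3DMSO, and 2 were higher and 3 lower in D6RA than in D6DMSO, with medians of 0.06 and -0.33. For comparison, 62.1% of all genes were called at day 3 and 65.8% at day 6. Esrp1, which favours the epithelial exon, averaged 0.274 ± 0.24 CPM in D3RA against 8.82 ± 0.47 CPM in D3DMSO, and 0.105 ± 0.033 CPM in D6RA against 4.43 ± 0.34 CPM in D6DMSO (SD; limma adjusted p = 3.08e-08 and 4.23e-09). Esrp2 averaged 1.41 ± 0.058 CPM in D6RA against 3.23 ± 0.11 CPM in D6DMSO (SD; limma adjusted p = 0.0125). Ptbp2, the neural polypyrimidine tract binding protein, averaged 406 ± 15 CPM in D3RA against 228 ± 19 CPM in D3DMSO, and 369 ± 7.8 CPM in D6RA against 188 ± 11 CPM in D6DMSO (SD; limma adjusted p = 1.47e-08 and 1.41e-09). Rbfox2 was higher with RA, by 0.31 ± 0.08 at day 3 and 1.03 ± 0.08 at day 6 on the log2 scale (SE; limma adjusted p = 0.00211 and 3.11e-09). Ptbp1 was lower at day 3, with a log2 fold change of -0.21 ± 0.08 (SE; limma adjusted p = 0.0257), and was also lower at day 6, at 156 ± 3.6 CPM in D6RA against 310 ± 25 CPM in D6DMSO (SD; limma adjusted p = 7.62e-09). The day 3 calls on Rbfox2 and Ptbp1 were lost without D3RA replicates 2 and 3 together, and that on Ptbp1 also without D3RA replicate 3 or without D3DMSO replicate 2 or 3. All day 3 calls of this list but that on Esrp1 were lost under scaling to the non-mitochondrial total.

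The genes whose log2 values ran most like those of a member over the 15 libraries were sought among 10534 genes. Pearson's r is given as a description, since the libraries share their groups and r ignores the size of a change. For Fgf4 it was highest for Eomes, a T-box factor of the primitive streak (r = 0.984), and Efr3a (0.973). For Fgf8 it was highest for Alox15 (0.979) and the WNT agonist gene Rspo3 (0.978), and for Fgf3 for the ephrin receptor gene Epha1 (0.954) and Nmb (0.944). Eomes averaged 1.03 ± 0.78 CPM in D3RA against 94.2 ± 1.8 CPM in D3DMSO, and Rspo3 averaged 1.56 ± 0.26 CPM in D3RA against 156 ± 51 CPM in D3DMSO (SD, n = 3 each). For Fgf5 it was highest for Mrpl16 (0.975) and Idh3a (0.974), mitochondrial protein genes with far smaller changes, and for Fgf15 for Eef2k (0.96) and Shb (0.96).

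Among the receptors, Fgfr2 ran most like Ptn, the heparin-binding factor pleiotrophin (r = 0.993), and Gadd45g (0.988). Ptn averaged 131 ± 20 CPM in D3RA against 1.62 ± 0.059 CPM in D3DMSO, and 197 ± 8.4 CPM in D6RA against 11.1 ± 1.7 CPM in D6DMSO (SD, n = 3 each). Fgfr3 ran most like Plcb1 (0.991) and Dhrs3 (0.988), a retinaldehyde reductase gene, which averaged 55.8 ± 11 CPM in D3RA against 2.88 ± 0.18 CPM in D3DMSO and 68.3 ± 3.8 CPM in D6RA against 17.1 ± 1.3 CPM in D6DMSO (SD, n = 3 each). Fgfr1 ran most like Hapln4 (0.979) and Heg1 (0.978), and Fgfr4 most like Rgs8 (0.949) and Mpeg1 (0.939).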

How the data were processed

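RNA values were deposited on a log2 scale for 14717 genes, 14228 of which were matched to a symbol. Each value is the log2 of a count plus 0.5, times a factor of its library: reversing this gave whole numbers for 100% of values (within 0.05), which were used as recovered counts and as CPM on the deposited scale. The submitters' processing notes list STAR 2.6.0c, featureCounts, Trimmomatic 0.32, FastQC 0.11.2, limma, edgeR, Bowtie2 2.2.9, SAMtools 0.1.19 and the build mm9, with no word on which of these made the RNA values. Libraries were made with a stranded kit and read as 75 bp single ends, per the labels' protocols. The strand setting of the counting is not given in the sources used here. Fgf15 overlaps the noncoding gene Gm26793, and Fgfr1 overlaps Gm31288 and Gm16159, in the RefSeq annotation, so reads of these pairs may not be told apart. A few FGF counts are so low that intervals and floors, which cover counting error only, are wide.

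The fit was made with limma 3.58.1 (R 4.3.3) over the whole table, with a trend in the variance, 1 coefficient for each of 5 groups and 10 residual degrees of freedom. Calls used a Benjamini-Hochberg adjusted p under 0.05. Fold changes of genes near 0 depend on the added count. Groups followed the titles. Tables and figures used Python 3.11.15, pandas 2.3.3, numpy 2.4.6, scipy 1.17.1 and matplotlib 3.10.9, and the scripts were tested on simulated data. The FGF genes, the 8 pathway lists and the 6 marker lists were chosen with earlier results of these data known. From each pathway list, the text names up to 2 called genes at the top and 2 at the bottom by log2 fold change, given a mean of 1 CPM or more in either group, per comparison of RA with DMSO. For each FGF gene the 2 genes with the highest Pearson correlation among those reaching 10 CPM in 1 group are named. Fadd, Ano1 and Ccnd1 were named as neighbours after their values were seen. Alternatives were scaling (quantile, median of ratios, non-mitochondrial total), filters, other added counts, limma without the trend and voom weights. Others were thinning to the smallest library size on the deposited scale (2189364), a replicate block, the compared groups alone and leaving out each library. Leaving out the 2 shallowest D3RA libraries together was chosen after seeing the data.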

Additional observations from a re-analysis of the deposited data

Results flagged for a closer look

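For 6 FGF genes the RA minus DMSO difference was not the same at day 6 as at day 3, by the interaction term of limma with Benjamini-Hochberg adjustment. The difference of differences (day 6 less day 3, log2) was 6.56 for Fgf15, which was lower in D3RA than in D3DMSO and higher in D6RA than in D6DMSO in 3 of 3 libraries at each day. It was 4.01 for Fgf4, 3.83 for Fgf3 and 0.62 for Fgfr1, all lower with RA at both days, and -1.23 for Fgfr2 and -2.10 for Fgfr3, both higher with RA at both days. The value for Fgf4 depends on the count added to the D3RA libraries at 0. Day 6 libraries were also deeper than day 3 libraries and held mitochondrial counts, and the part of these in the interaction was not tested.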

How the results depend on the processing

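Of 63 FGF gene and comparison pairs, 40 kept their direction and call under every alternative run (28, or 27 for Fgfr4, which a filter of 5 CPM in 3 libraries left out), among them every pair of D3RA versus D3DMSO and the 6 interactions called. All-gene counts moved under scaling to the non-mitochondrial total: 4474 for D3DMSO versus D0 (8253 as reported), 5101 for D6DMSO versus D3DMSO (8302) and 3763 for the interaction (7139), which was 4717 after thinning. That scaling shifted the median log2 fold change of all genes by -0.31 in D3RA versus D3DMSO, -0.35 in D3RA versus D0, 0.50 in D6RA versus D3RA, 0.27 in D6DMSO versus D3DMSO and 0.23 in the interaction. Its share of calls that were higher was 27.5%, 30%, 83.6%, 79.1% and 68.9% in that order, against 49.4%, 50.8%, 53.7%, 50.3% and 52.4% as reported. Quantile normalization shifted D6RA versus D3RA by -0.13. FGF genes called in D3DMSO versus D0 numbered 8 under quantile normalization and 3 to 6 with 1 library left out (5 as reported), and in D6RA versus D3RA 3 with an added count of 2 (5 as reported).

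Some values changed sign. In D6RA versus D3RA these were Fgf3 (-0.16 without D3RA replicate 2, up to 0.88 without replicate 3), Fgf4 (0.41 and 1.52 with added counts of 2 and 0.25, and 0.08 without the 2 shallowest D3RA libraries) and Fgfr4. For Fgf4, not called as reported (-1.31), alternatives called opposite directions: higher at 1.52 with the added count of 0.25 (limma adjusted p = 0.03), and lower without D3RA replicate 1 (-2.0, 0.00968) or D6RA replicate 2 (-2.10, 0.00549). Fgfr4 was 0.47 under the non-mitochondrial total, 0.06 with either added count, 0.10 when thinned and -0.18 to 0.07 with 1 library left out (0.03 and 0.06 without D3RA replicate 1 or 3, 0.07 without D6RA replicate 2). In D6DMSO versus D3DMSO, Fgfr1 was 0.23 under the non-mitochondrial total and 0.02 without D3DMSO replicate 3, and Fgfr4 was -0.16 to 1.23 with 1 library left out (D3DMSO replicates 2 and 3). The Fgfr4 interaction was 0.10 when thinned and 0.13 without D3DMSO replicate 2, and down to -1.25 without replicate 3. Rasa1, called at day 3, was -0.12 under the non-mitochondrial total. With an added count of 0.25 the calls on Fgf3, Fgf5 and Fgfr4 in D6RA versus D6DMSO were lost (limma adjusted p = 0.245, 0.0629 and 0.0674). The cause of these shifts was not tested.

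Deviations of libraries with the same replicate number correlated at -0.183 to 0.263 (median 0.038, 30 pairs, 5 over 0.1). Those with different numbers correlated at -0.205 to 0.224 (median -0.017, 60 pairs, 7 over 0.1). Among D0, D3RA and D3DMSO libraries, same-number pairs ran from 0.04 to 0.263 and different-number pairs from -0.205 to 0.058. Same-number pairs with a day 6 library ran from -0.183 to 0.075. In all, 8 of 15 libraries correlated best with their own number. Whether the numbers mark paired libraries was not tested. A replicate block gave 9287 genes in D3RA versus D3DMSO (9136 without it) and 9808 in D6RA versus D6DMSO (9678), with 9 FGF genes in each, and 6 FGF genes in D3DMSO versus D0, where it added the call on Fgf15 (limma adjusted p = 0.0359). Depth limits Fgf4, Fgf8, Fgf3 and Fgf5 in the RA groups, which held 0 to 46 counts per group.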
